A study of Mus musculus with 11 samples.

Results

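The visceral endoderm is the outer epithelium of the yolk sac, the membrane around the embryo, and it takes up maternal nutrients and secretes plasma proteins before the fetal liver does so. The genes described are 9 of its transcription factors, taken by symbol: Hnf4a, Foxa1, Foxa2, Foxa3, Gata4, Gata6, Hhex, Nr1h5 and Nr5a2. All 9 were among the 15061 genes counted, and all 9 passed the filter on low counts, which left 14671 genes for testing. As background, GATA4 and GATA6 bind GATA motifs and act in this endoderm. FOXA factors are forkhead proteins that can bind their sites in closed chromatin. HNF4A is a nuclear receptor that acts on apolipoprotein and other secretory genes in visceral endoderm and liver. The same factors also act in liver, gut, pancreas and heart, so that none of them marks the visceral endoderm alone.

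The 11 libraries hold RNA of mouse yolk sacs taken at embryonic day 9.5. The 4 control libraries (control 1 to 4) are Hand1 fx/+, with 1 floxed and 1 normal Hand1 allele. The 3 H1CKO libraries (H1CKO 5 to 7) are T-Cre +/-; Hand1 fx/fx, with Cre recombinase under control of T (brachyury), which is active in the primitive streak, the source of yolk sac mesoderm and not of visceral endoderm. The 4 H1H2H2 libraries (H1H2H2 8 to 11) are Hand1 H2/H2, with a Hand2 replacement on both Hand1 alleles. HAND2 is a close relative of HAND1 in the basic helix-loop-helix class. Only the H1CKO labels name a Cre, so Cre itself and the loss of Hand1 cannot be told apart there. Another label of the same libraries gives a Hand1 knockout allele over a floxed one, and a label of the controls calls them wild type. One yolk sac number stands on both control 1 and control 2, and the labels do not say whether libraries came from separate embryos, so that p-values measure the spread between these libraries, which may be technical.

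Libraries held 12019377 to 16824228 counts over genes. Hand1, the targeted gene, stood at 58.1, 91.1, 41.9 and 31.1 CPM (read counts scaled to a common library size, TMM-normalised) in control 1 to 4, at 10.8, 6.19 and 5.95 CPM in H1CKO 5 to 7, and at 15.3, 4.35, 8.59 and 9.97 CPM in H1H2H2 8 to 11, from 70 to 216 counts. Hand2 stood at 43.5, 42.3, 47.2 and 31.7 CPM in control, at 70.5, 72.8 and 91.8 CPM in H1CKO, and at 81.0, 23.6, 35.9 and 33.7 CPM in H1H2H2. Only H1H2H2 8 was above the controls for Hand2 in its group (log2 fold change 0.08, SE 0.300, adjusted p = 0.873), so that the total Hand2 level does not mark the replacement in the other 3 libraries, while Hand2 was higher in H1CKO (0.93, SE 0.319, adjusted p = 0.0273). The visceral endoderm was present in every library by 18 non-factor genes of its own, among them Afp, Apob and Cubn, whose summed level was 39280 to 45650 CPM in control, 9816 to 16910 CPM in H1CKO and 47380 to 50440 CPM in H1H2H2. In bulk tissue, fewer cells of a type and less RNA per cell cannot be told apart. Markers of other tissues differed between libraries. The yolk sac mesoderm and mesothelium, a layer that comes from the primitive streak, gave a summed 2776 to 2924 CPM over 8 markers in control, 751.7 to 1006 CPM in H1CKO, and 3819, 1427, 2479 and 2706 CPM in H1H2H2 8 to 11. Of these 8 markers, Col1a1 and Upk3b fell in H1CKO and Wt1 rose, where 25.6% of all genes fell and 27% rose. Col1a1 made up most of the sum, at 2566 CPM in control and 528.2 CPM in H1CKO. The median log2 fold change of the 8 in H1CKO was 0.345, against 0.03 for all genes, so that the fall of the sum is not that of the list as a whole. Wt1 was not called with sex as a term. Summed heart markers (11 genes) stood at 176.6 to 248.8 CPM in control, 139.4 to 214.2 CPM in H1H2H2 and 1750 to 4120 CPM in H1CKO, highest in H1CKO 5. Summed parietal endoderm markers (5 genes) stood at 4202 CPM in control 2 and 3209 CPM in H1H2H2 9, against 795.2 to 1086 CPM in the other 9 libraries. By Xist and Y-linked transcripts, control 1, 2 and 4 and H1H2H2 10 were female and the other libraries male, so that the H1CKO group held males only.

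Promoter sequence is shown for 2 factors that moved in opposite directions in H1CKO and for Afp, the alpha-fetoprotein gene that serves as a reference for the endoderm's products. In the mm10 coordinates of the deposited table, Hnf4a lies at chr2:163547188-163572907, Foxa1 at chr12:57540632-57546121 and Nr5a2 at chr1:136843584-136960448. Each line gives the 250 bases upstream of a RefSeq transcript start in build GRCm38.p6, read 5′ to 3′ on the gene's strand, with matches to the motifs searched in capitals. The motifs were HNF4 (CAAAGTCCA, CAAAGTTCA or CAAAGGTCA), the GATA factor motif (AGATAA or TGATAA), FOXA (TGTTTAC or TGTTTGC) and NR5A (CAAGGTCA), on either strand.
Foxa1, chr12:57546112-57546361, minus strand: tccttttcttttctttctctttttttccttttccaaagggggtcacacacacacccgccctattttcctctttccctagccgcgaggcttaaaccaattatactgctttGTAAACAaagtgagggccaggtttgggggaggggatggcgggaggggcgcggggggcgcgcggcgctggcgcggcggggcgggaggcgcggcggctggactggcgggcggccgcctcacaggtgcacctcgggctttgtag
Nr5a2, chr1:136960449-136960698, minus strand: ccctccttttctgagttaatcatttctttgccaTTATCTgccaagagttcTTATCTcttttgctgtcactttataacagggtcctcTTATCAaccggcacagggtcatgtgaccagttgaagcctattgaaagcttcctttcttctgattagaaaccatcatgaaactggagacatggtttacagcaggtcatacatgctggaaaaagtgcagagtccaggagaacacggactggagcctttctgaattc
Afp, chr5:90490464-90490713, plus strand: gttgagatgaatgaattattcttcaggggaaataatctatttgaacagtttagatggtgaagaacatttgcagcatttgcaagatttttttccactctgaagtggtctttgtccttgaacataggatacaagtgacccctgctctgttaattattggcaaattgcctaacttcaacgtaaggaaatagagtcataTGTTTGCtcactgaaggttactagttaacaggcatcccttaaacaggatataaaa
In these windows, Foxa1 holds a FOXA match 141 to 135 bases before its start. Nr5a2 holds 3 GATA matches between 217 and 159 bases before its start. Its window was chosen for having the most matches, and the window of another Nr5a2 start, chr1:136953631-136953880, holds 0 matches to any of the motifs. Afp holds a FOXA match at 55 to 49 bases before its start. No match shown shares a base with another, although the letters of HNF4 and NR5A have the run AAGGTCA in common.

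Windows of the same length were searched for all 32851 entries of the RefSeq table. For 7 of the factors, Hnf4a, Foxa1, Foxa2, Foxa3, Hhex, Nr1h5 and Nr5a2, there were 11 windows in all. A GATA motif was found in 4 of the 11 windows and in 16.6% of all windows, and a FOXA motif in 1 window and in 7.29% of all. HNF4 and NR5A letters were in 0 of the 11 windows, against 1.14% and 1.33% of all windows. For 17 of the 19 listed reference genes of the endoderm there were 19 windows. A FOXA motif was in 7 of them, a GATA motif in 2, HNF4 letters in 1 and NR5A letters in 0. A match is a run of letters and not a measured binding site, and a window without one says nothing of the factor beyond these letters.

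Per kilobase of transcript, the control yolk sac held far more Hnf4a than any of the other 8 factors. The mean level of Hnf4a in control was 100.5 ± 8.55 CPM per kilobase (SD, n = 4), followed by Gata4 at 30.9 ± 4.92 and Gata6 at 23.3 ± 13.03 CPM per kilobase. Foxa2 at 15.3 ± 0.808 and Foxa3 at 14.4 ± 1.17 CPM per kilobase came next, and Nr5a2, Hhex, Foxa1 and Nr1h5 followed at 5.19 ± 0.502, 3.70 ± 0.593, 2.77 ± 0.821 and 1.89 ± 1.13 CPM per kilobase. Hnf4a overlapped no other factor across the 4 controls, and Foxa3 did not overlap Nr5a2. All other neighbours in the order overlapped. In H1CKO the order changed at the top, with Gata4 at 44.3 ± 10.4, Hnf4a at 33.4 ± 7.20 and Gata6 at 30.6 ± 2.98 CPM per kilobase (SD, n = 3). Hnf4a overlapped both Gata4 and Gata6, and these 2 did not overlap each other. Foxa1 and Hhex then stood above Foxa3, at 6.598 ± 0.664, 6.38 ± 0.526 and 5.95 ± 0.386 CPM per kilobase, again with overlaps. In H1H2H2 the order was that of control except that Foxa3, at 14.9 ± 2.85, stood above Foxa2, at 14.1 ± 1.57 CPM per kilobase, and these overlapped. The authors' deposited table of log2 FPKM gave each group the same order.

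**Figure D1:**
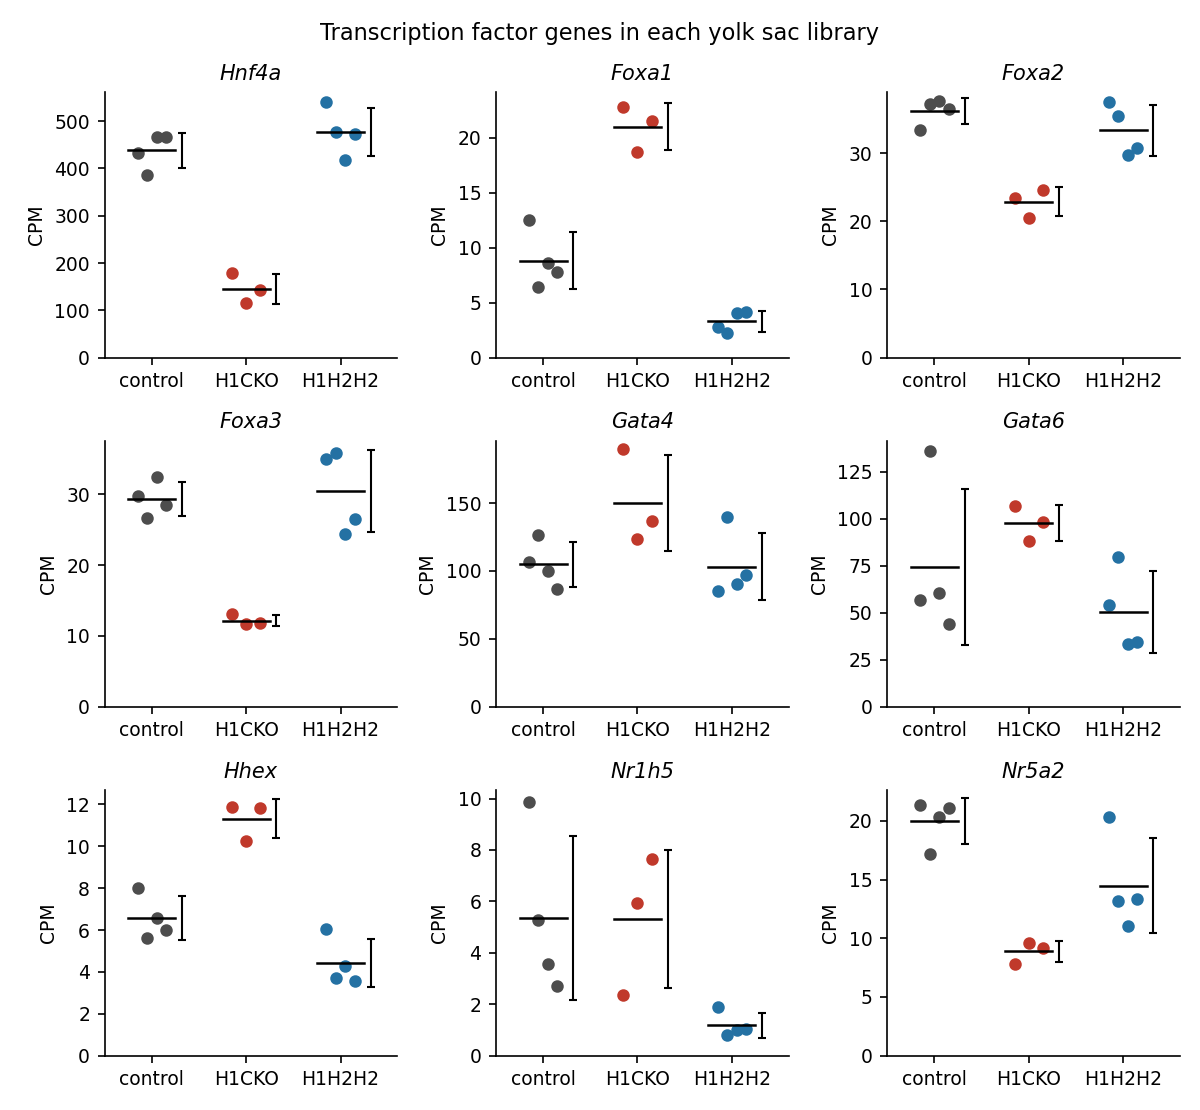
Level of each of the 9 factor genes in every library, in TMM-normalised CPM on axes that start at 0; points are libraries, horizontal lines group means and bars ± 1 SD (n = 4, 3 and 4). Hnf4a lies at 115.9 to 178.4 CPM in H1CKO and at 387.1 to 540.2 CPM in the other libraries, while Foxa1 lies at 18.7 to 22.9 CPM in H1CKO, 6.39 to 12.5 CPM in control and 2.24 to 4.13 CPM in H1H2H2.

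The first comparison sets the conditional Hand1 knockout against the controls. In H1CKO the factors did not move together: Hnf4a, Foxa2, Foxa3 and Nr5a2 fell, Foxa1, Hhex and Gata4 rose, and Gata6 and Nr1h5 did not pass the test. In all 7 of 9 were called (edgeR quasi-likelihood test, Benjamini-Hochberg adjusted p under 0.05 over all genes tested), where 52.6% of all 14671 genes were called. The 3 that rose stand beside 27% of all genes higher, and the 4 that fell beside 25.6% lower. The members' median log2 fold change was -0.01, against 0.03 for all genes. Their range, from -1.59 to 1.25, held both the fall of Hnf4a and the rise of Foxa1.

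Hnf4a, the nuclear receptor, stood at 432.7, 387.1, 466.1 and 465.6 CPM in control 1 to 4 and at 178.4, 115.9 and 142.5 CPM in H1CKO 5 to 7. Every H1CKO library was below every control. The log2 fold change was -1.59 (SE 0.142, adjusted p = 6.16e-06). Foxa3, a forkhead factor also of liver, stood at 29.8, 26.7, 32.4 and 28.5 CPM in control and at 13.04, 11.6 and 11.8 CPM in H1CKO, and fell by 1.27 on the log2 scale (SE 0.147, adjusted p = 2.64e-05). Nr5a2, the liver receptor homologue 1 gene, stood at 21.4, 17.2, 20.3 and 21.1 CPM in control and at 7.85, 9.62 and 9.16 CPM in H1CKO, lower by a log2 fold change of -1.17 (adjusted p = 0.000294, SE 0.192). Neither gene overlapped between the groups, and the 3 H1CKO libraries lay close together for both. Foxa2, the forkhead factor of endoderm, notochord and floor plate, fell less, from 33.4, 37.2, 37.6 and 36.5 CPM to 23.5, 20.5 and 24.6 CPM, by 0.66 on the log2 scale (SE 0.107, adjusted p = 0.000264). These 4 falls were called under each of the 22 alternatives tried.

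The rise of Foxa1 was the largest among the 9 in H1CKO. Foxa1 stood at 12.5, 6.39, 8.64 and 7.81 CPM in control and at 22.9, 18.7 and 21.5 CPM in H1CKO, from 93 to 176 and from 245 to 291 counts. Control 1 was the highest control, and the lowest H1CKO library was still above it. The log2 fold change was 1.25 (SE 0.235, adjusted p = 0.000783). Hhex, a homeobox factor of anterior visceral endoderm, liver bud and early endothelium, stood at 8.03, 5.63, 6.55 and 6.02 CPM in control and at 11.9, 10.2 and 11.8 CPM in H1CKO (adjusted p = 0.00518, log2 fold change 0.79, SE 0.197). The groups did not overlap for Hhex either. Both calls were kept under each of the 22 alternatives, at log2 fold changes of 1.09 to 1.42 for Foxa1 and 0.68 to 0.85 for Hhex.

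Transcripts of other tissues that express Foxa1 or Hhex moved in the same libraries. The counts of markers stand beside 27% of all genes that rose in H1CKO and 25.6% that fell. Of 7 tested markers of embryonic gut endoderm 4 rose and none fell, at a summed 15.1 to 37.7 CPM in control and 64.8 to 73.0 CPM in H1CKO, with control 1 the highest control. Nkx2-1, of lung and thyroid, had no count in any control and stood at 1.73 ± 0.375 CPM (SD, n = 3) in H1CKO, and Sox2, of foregut and neural tube, rose from 0.385 ± 0.317 to 33.2 ± 2.21 CPM. Of 7 tested notochord and floor plate markers 4 rose and 1, Foxj1, fell, at a summed 10.6 to 46.7 CPM in control and 73.4 to 89.1 CPM in H1CKO, and without H1CKO 6 3 rose and none fell. T itself had no count in control 2, 3 and 4. The 8 endothelial markers, which bear on Hhex, summed to 495.8, 550.1 and 505.7 CPM in control 1, 2 and 4, to more in control 3, and to 538.9, 573.7 and 628.8 CPM in H1CKO, with none higher and 1 lower, Tek. That count was 2 higher and 1 lower with only the 2 groups in the fit, without H1H2H2 8, or without control 2 and H1H2H2 9, and none was called with sex as a term or without control 3 or any 1 of the H1CKO libraries. The part of these tissues in the rise of Foxa1 and Hhex was not tested.

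Of the GATA pair, Gata4 rose by a margin close to the threshold and Gata6 did not pass the test. Gata4, the zinc finger factor of endoderm and heart, stood at 106.8, 126.7, 99.8 and 86.7 CPM in control and at 190.2, 123.7 and 136.6 CPM in H1CKO. Control 2 and H1CKO 6 overlapped, and H1CKO 5 was the highest library of all. The log2 fold change was 0.52 (SE 0.190, adjusted p = 0.0369), and it was 0.29 (adjusted p = 0.224) without H1CKO 5. The call was lost in 8 of the 22 alternatives, among them the term for sex (0.46, adjusted p = 0.193) and leaving out control 1, control 3, control 4, H1CKO 7 or H1H2H2 11. Of the exon bases of Gata6 1.8% overlap 1010001N08Rik on the other strand, so that reads there may be shared. Gata6 stood at 56.8, 135.9, 60.3 and 44.2 CPM in control and at 106.9, 87.9 and 98.5 CPM in H1CKO. Control 2 stood above every H1CKO library and the other 3 controls stood below them. The log2 fold change of 0.40 (95% interval -0.32 to 1.11, adjusted p = 0.384) was 0.83 and called without control 2 (adjusted p = 0.0281).

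Control 2 and H1H2H2 9, which held the most parietal endoderm transcripts, were the highest libraries of their groups for both Gata4 and Gata6. The parietal endoderm lines the outer side of the yolk sac cavity and is itself a GATA factor tissue. Lama1, a laminin of its basement membrane, stood at 2300 and 1816 CPM in these 2 libraries and at 217.3 to 336.6 CPM in the other 9, and Plat at 38.9 and 48.8 CPM against 7.73 to 25.8 CPM. None of the 5 markers was at 0 in any library. With both libraries left out, an alternative chosen after the values were seen, Gata6 rose in H1CKO by 0.83 (adjusted p = 0.00284) and Gata4 by 0.58 (adjusted p = 0.00673), and 8 of 9 factors were called. Heart markers moved with the H1CKO group: 10 of 11 rose, where 27% of all genes rose. Tbx20 did not pass the test, and Nppa was at 0 in all 4 controls. H1CKO 5, the highest for Gata4, held a summed 4120 CPM of heart markers, against 2007 and 1750 CPM in H1CKO 6 and 7. The part of heart and parietal endoderm in the GATA levels was not tested.

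**Figure D2:**
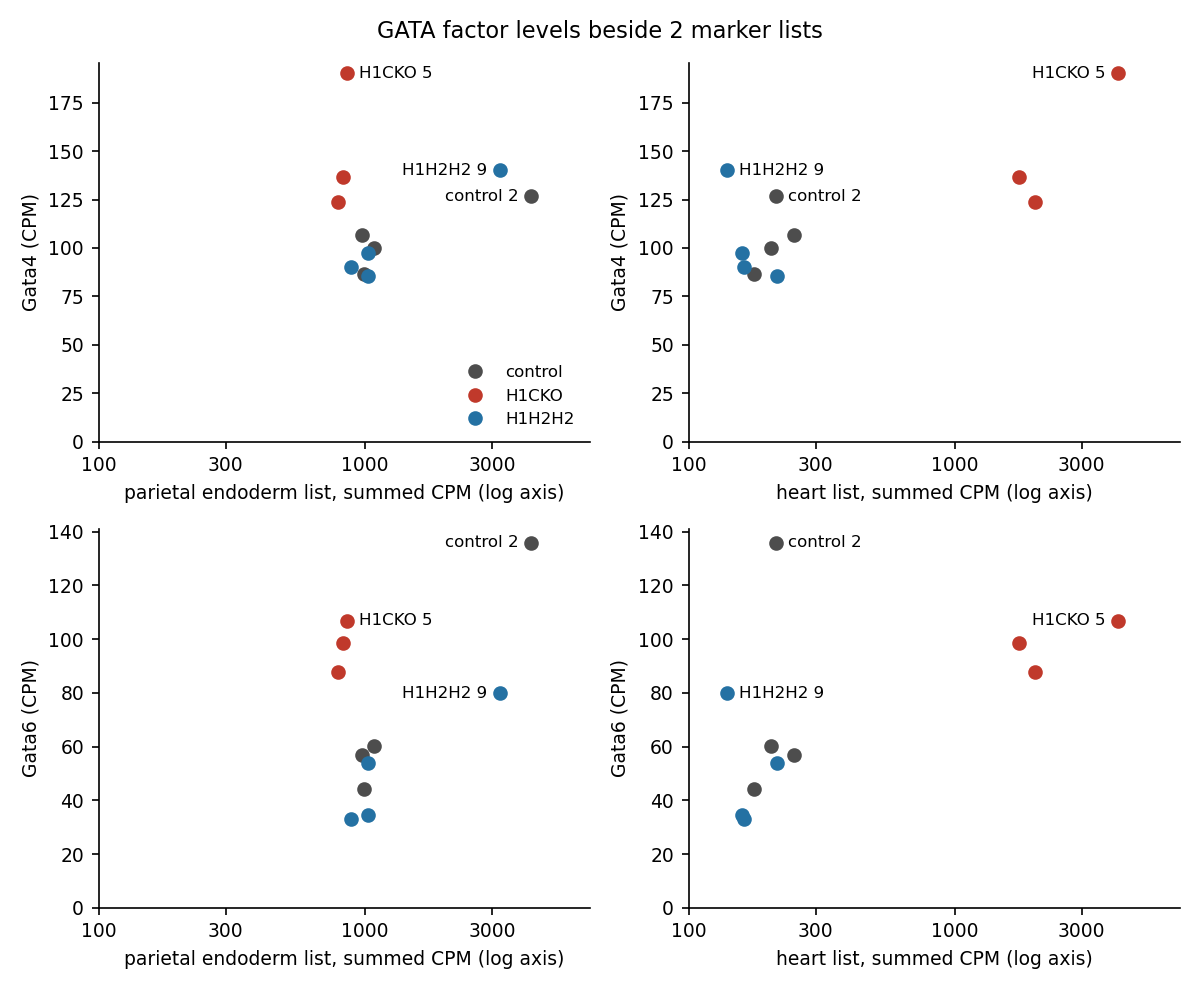
Gata4 (top) and Gata6 (bottom) in CPM, against the summed CPM of 5 parietal endoderm markers (left) and of 11 heart markers (right) on log axes; each point is 1 library. Control 2 and H1H2H2 9 lie apart at 4202 and 3209 CPM of parietal endoderm markers, and the 3 H1CKO libraries at 1750 to 4120 CPM of heart markers.

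Nr1h5, a nuclear receptor of the farnesoid X receptor group known as FXR beta, was low and spread widely. It stood at 9.87, 5.29, 3.57 and 2.71 CPM in control, from 41 to 139 counts, and at 2.36, 5.96 and 7.63 CPM in H1CKO. The groups overlapped over most of their range. The log2 fold change of -0.01 had a 95% interval of -0.92 to 0.90 (adjusted p = 0.987), so that changes of nearly 2-fold in either direction were not excluded.

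Setting each library to the 18 reference genes of the visceral endoderm, in place of all genes, asks how the factors stood relative to that layer's own products. None of the 9 factors is in that reference. It does hold apolipoprotein genes such as Apob, on which HNF4A acts, so that it is not independent of Hnf4a. The 18 genes fell by a median log2 fold change of 1.72 in H1CKO, with 17 of 18 called lower where 25.6% of all genes fell, and Alb alone was not called. In the reference each gene weighs alike, also Alb, with 57 counts in control 1 and 5, 5 and 7 in control 2, 3 and 4. Hnf4a then hardly differed between the groups, at 298.5, 334.5, 352.9 and 334.1 CPM per reference in control and 304.6, 337.1 and 370.2 in H1CKO (log2 fold change 0.03, 95% interval -0.28 to 0.34, adjusted p = 0.852). Foxa3 and Nr5a2 also missed the threshold, at 0.38 (95% interval -0.02 to 0.77, adjusted p = 0.0851) and 0.52 (95% interval 0.04 to 1.00, adjusted p = 0.0509). Without H1CKO 5, which held the most reference transcripts of its group, both were called, at 0.54 (adjusted p = 0.00827) and 0.78 (adjusted p = 0.00155). The other 6 factors were higher per reference. Foxa1 stood at 8.63, 5.52, 6.54 and 5.60 in control and at 39.01, 54.4 and 55.9 in H1CKO, higher by 2.92 on the log2 scale (adjusted p = 5.24e-09, SE 0.255).

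On the reference scale 92.4% of all genes were called, 91.8% higher and 0.654% lower, and the median of all genes moved to 1.69, so that 6 of 9 factors called higher is below the background. Foxa2, lower in CPM, was at 0.99 per reference (SE 0.195, adjusted p = 8.19e-05), a turn that goes with the shift of all genes. Since a change of scaling moves nearly every gene alike, values per reference are given against that median. On that footing Hnf4a was at -1.66, Foxa3 at -1.32, Nr5a2 at -1.17, Foxa2 at -0.71, Nr1h5 at 0.06, Gata6 at 0.29, Gata4 at 0.42, Hhex at 0.75 and Foxa1 at 1.22. These differ little from the same values in CPM by the construction of the scaling.

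**Figure D3:**
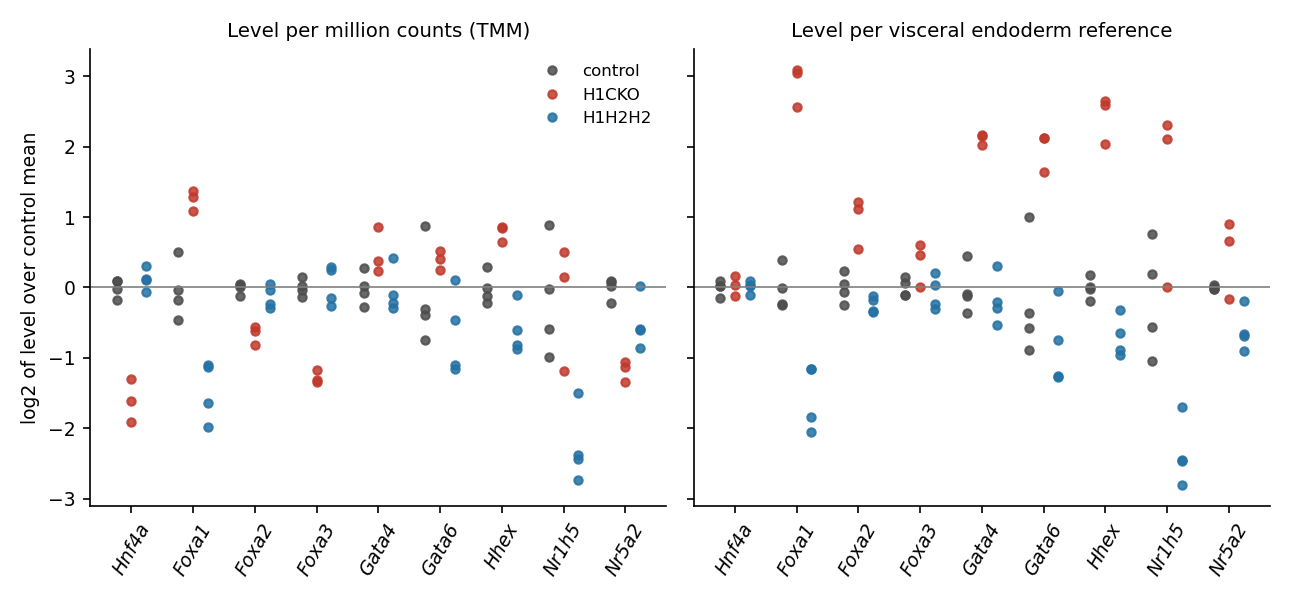
Log2 of each library's level over the control mean for the 9 factors, in CPM (left) and per visceral endoderm reference (right); each point is 1 library. In H1CKO Hnf4a lies below 0 on the left and at 0 on the right, where 91.8% of all genes were called higher.

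In the shares of the 3 FOXA genes no difference between groups passed the test after adjustment, and with so few libraries none could have. Per kilobase, Foxa1 gave 12.03%, 6.50%, 7.86% and 7.70% of the FOXA transcripts in control 1 to 4, and 30.6%, 29.1% and 29.5% in H1CKO 5 to 7. In H1H2H2 8 to 11 it gave 2.62%, 2.11%, 4.91% and 4.75%. The 3 groups did not overlap in this share. The difference from control was 21.2 percentage points in H1CKO (exact two-sided permutation test, p = 0.0571, the smallest that 3 against 4 libraries can give) and -4.93 points in H1H2H2 (exact two-sided permutation test, p = 0.0286, the smallest that 4 against 4 can give). Adjusted over the 12 share tests, both stood at 0.114. The 3 shares sum to the whole, so that those of Foxa2 and Foxa3 are not independent of the share of Foxa1. Foxa3 gave 44.3% ± 1.496 (SD, n = 4) in control, 26.9% ± 1.53 (SD, n = 3) in H1CKO and 49.5% ± 2.89 (SD, n = 4) in H1H2H2. The share of Foxa2 was 47.1% ± 3.31, 43.4% ± 1.65 and 46.9% ± 1.52 in the 3 groups, and overlapped between them. The Gata6 share of Gata4 and Gata6 together was 40.9% ± 8.41 in control, 41.3% ± 3.36 in H1CKO and 33.3% ± 6.52 in H1H2H2, and overlapped between the groups (exact permutation tests, p = 0.171 to 0.971).

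**Figure D4:**
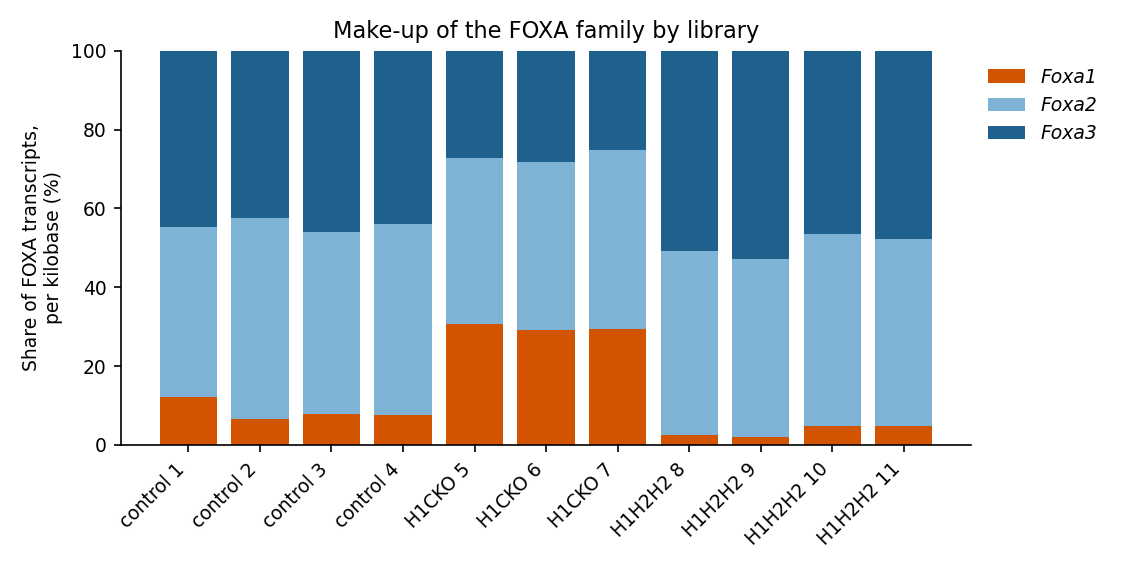
Share of Foxa1, Foxa2 and Foxa3 in the summed FOXA transcripts of each library, per kilobase, in percent. Foxa1 takes 29.1% to 30.6% in the 3 H1CKO libraries, 6.50% to 12.03% in the 4 controls and 2.11% to 4.91% in the 4 H1H2H2 libraries.

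The second comparison asks how the factors stand when Hand2 replaces Hand1, and it shares its controls with the first. Here 2 of 9 factors were called, Foxa1 and Nr1h5, both lower, against 16.7% of all genes called, 9.49% higher and 7.16% lower. With upper-quartile scaling the split of all genes turned from 1392 higher and 1051 lower to 1083 higher and 1330 lower, and 3 factors were called lower, Hhex in addition. No factor was called higher. The members' median log2 fold change was -0.47, against -0.01 for all genes. Foxa1 stood at 2.82, 2.24, 4.03 and 4.13 CPM in H1H2H2 8 to 11, from 36 to 61 counts, all below the lowest control at 6.39 CPM (log2 fold change -1.42, SE 0.237, adjusted p = 0.00624). That call was kept under each of the 22 alternatives, at -1.56 to -1.21, with adjusted p up to 0.0300. Nr1h5 stood at 1.91, 0.808, 0.991 and 1.03 CPM, from 13 to 27 counts, below the lowest control at 2.71 CPM (log2 fold change -2.18, SE 0.476, adjusted p = 0.0146). For Nr1h5 the call did not hold once sex was a term (-2.01, adjusted p = 0.0672), without H1H2H2 11 (-2.13, adjusted p = 0.0525), and without control 2 and H1H2H2 9 together (-2.04, adjusted p = 0.0795).

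Control 1 was the highest control for Foxa1, Hhex and Nr1h5, and it also held the most transcripts of several foregut and liver genes. Nepn, a gut endoderm marker, stood at 22.4 CPM in control 1, at 1.06 to 7.00 CPM in the other controls and at 0.353 to 1.49 CPM in H1H2H2. Onecut1 and Onecut2, homeobox factors of liver and pancreas, stood at 5.40 and 26.4 CPM in control 1 and at 1.85 to 2.68 and 9.66 to 11.2 CPM in the other controls. Over the 7 gut markers, 2 were called higher in H1H2H2 (Pdx1 and Cdx2) and 1 lower (Nepn), at a summed 17.7 to 21.5 CPM. Of all genes 9.49% were called higher and 7.16% lower. No gut marker was called without control 1, control 3, H1H2H2 9, H1H2H2 10 or H1H2H2 11 or with sex as a term. Without control 1, Foxa1 was still called lower at -1.21 and Nr1h5 at -1.72. The part of gut tissue in control 1 in these differences was not tested.

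The remaining 7 factors were not called in H1H2H2. Hnf4a stood at 540.2, 476.4, 417.4 and 472.2 CPM (log2 fold change 0.12, 95% interval -0.12 to 0.37, adjusted p = 0.510), among the control values and above. Foxa2 at 29.7 to 37.5 CPM and Foxa3 at 24.4 to 35.9 CPM had log2 fold changes of -0.12 (95% interval -0.31 to 0.07) and 0.06 (95% interval -0.20 to 0.30). Gata4 stood at 85.6, 140.1, 90.1 and 97.4 CPM and Gata6 at 53.9, 79.8, 33.2 and 34.5 CPM, with H1H2H2 9 the highest for both. Their log2 fold changes were -0.02 (95% interval -0.37 to 0.32) and -0.56 (95% interval -1.23 to 0.11, adjusted p = 0.264). Gata6 was at -0.10 without control 2. Hhex at 6.07, 3.73, 4.29 and 3.58 CPM (log2 fold change -0.57, adjusted p = 0.0574) and Nr5a2 at 20.3, 13.2, 11.0 and 13.3 CPM (-0.47, adjusted p = 0.0752) lay just outside the threshold. In both genes H1H2H2 8 stood among the controls while the other 3 libraries lay below every control. Without H1H2H2 8 both were called, at -0.78 (adjusted p = 0.00415) and -0.69 (adjusted p = 0.00215), in a fit that called 5055 genes in place of 2443.

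**Figure D5:**
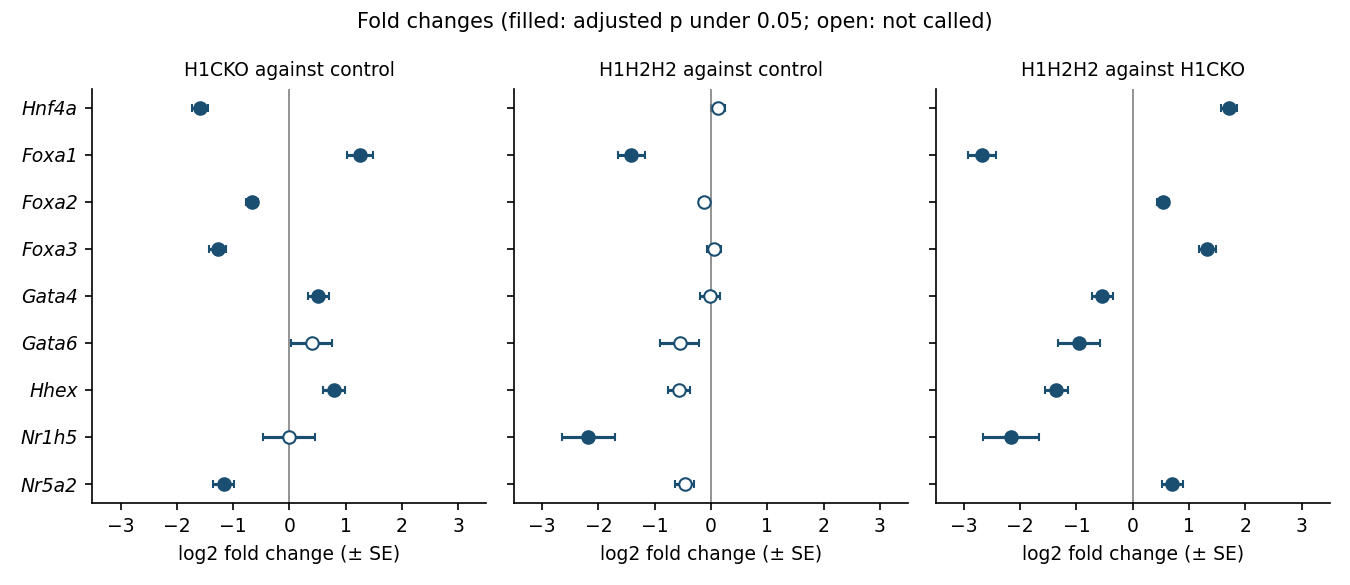
Log2 fold changes of the 9 factors in the 3 comparisons, with bars of ± 1 SE; filled points passed an adjusted p of 0.05 and open points did not. Foxa1 is filled in all 3 panels and changes sign, at 1.25 in H1CKO and -1.42 in H1H2H2 against control, and at -2.67 between the mutant groups.

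Per visceral endoderm reference, the H1H2H2 comparison gave the same 2 calls, Foxa1 at -1.501 (adjusted p = 0.00230) and Nr1h5 at -2.29 (adjusted p = 0.0111). On this scale 3.17% of all genes were called, 0.518% higher and 2.65% lower, and the median of all genes was -0.13. Hnf4a per reference stood at 350.0, 338.4, 304.9 and 335.6 in H1H2H2, a log2 fold change from control of 0.01 (95% interval -0.28 to 0.30). Its group means per reference were therefore 330.0 ± 22.8 in control (SD, n = 4), 337.3 ± 32.8 in H1CKO (SD, n = 3) and 332.2 ± 19.3 in H1H2H2 (SD, n = 4). Nr5a2 per reference stood between 14.8 and 15.4 in control and at 13.2, 9.36, 8.06 and 9.48 in H1H2H2, so that the groups did not overlap (-0.58, 95% interval -1.03 to -0.14, adjusted p = 0.149). Without H1CKO 5, a library of neither group, Hhex and Nr5a2 were also called lower on this scale, both at an adjusted p of 0.0336.

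The direct comparison of the mutant groups tests the difference between them. All 9 factors were called, against 65% of all genes, with 4 higher in H1H2H2 (31.8% of all genes) and 5 lower (33.3% of all genes). The members' median log2 fold change was -0.54, against -0.03 for all genes. Hnf4a was higher in H1H2H2 by 1.71 (SE 0.143, adjusted p = 1.61e-06), Foxa3 by 1.33 (SE 0.147, adjusted p = 9.27e-06), Nr5a2 by 0.70 (SE 0.191, adjusted p = 0.00619) and Foxa2 by 0.55 (SE 0.107, adjusted p = 0.000708). Foxa1 was lower by the largest amount of the 9, -2.67 (SE 0.248, adjusted p = 3.00e-06), from 18.7 to 22.9 CPM in H1CKO to 2.24 to 4.13 CPM in H1H2H2. Nr1h5 at -2.17 (SE 0.501, adjusted p = 0.00225) and Hhex at -1.36 (SE 0.199, adjusted p = 8.23e-05) were lower as well, and neither overlapped. Gata4 and Gata6 were lower at -0.54 (adjusted p = 0.0246) and -0.96 (adjusted p = 0.0364), and these calls were lost in 4 and 8 of the 22 alternatives, among them leaving out H1CKO 5, H1H2H2 8, H1H2H2 10 or H1H2H2 11 for both.

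Per reference, 8 of 9 factors were called lower in H1H2H2 than in H1CKO and none was called higher. Of all genes 92.1% were called, 0.825% higher and 91.3% lower, at a median of -1.80, so that 8 of 9 is below the background. Hnf4a was the 1 factor not called, at -0.02 (95% interval -0.33 to 0.29). Foxa1 was at -4.42 (adjusted p = 5.52e-11), Nr1h5 at -4.04, Hhex at -3.13, Gata6 at -2.72, Gata4 at -2.26, Foxa2 at -1.23 and Nr5a2 at -1.11. The Foxa3 call, at -0.44 (adjusted p = 0.0477), was lost in 14 of 21 alternatives, among them each of the 4 that left out 1 control. Against the median of all genes, Hnf4a was at 1.78, Foxa3 at 1.36, Nr5a2 at 0.695 and Foxa2 at 0.58. On that footing Gata4 was at -0.455, Gata6 at -0.92, Hhex at -1.33, Nr1h5 at -2.24 and Foxa1 at -2.62.

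Of 14 other endoderm and liver factors tested, 4 rose and 7 fell in H1CKO, where 27% of all genes rose and 25.6% fell, and their median log2 fold change was -0.56. With a term for sex 2 rose and 5 fell. The leucine zipper factors Cebpb and Creb3l3 fell by 1.60 (SE 0.275, adjusted p = 0.000420) and 1.21 (SE 0.109, adjusted p = 6.49e-06), and Cebpa, Ppara and Rxra were also called lower. Prox1, of liver and lymphatic endothelium, rose from 5.98 ± 3.84 to 20.9 ± 4.93 CPM (1.80, SE 0.352, adjusted p = 0.00103), and Tbx3, Onecut1 and Sox17 were also called higher. In H1H2H2 1 was called higher and 2 lower, where 9.49% of all genes were higher and 7.16% lower. Creb3l3 rose from 67.7 ± 5.69 to 103.4 ± 8.27 CPM (0.61, SE 0.0952, adjusted p = 0.00507), and Onecut1 and Onecut2 were lower at -1.68 (adjusted p = 0.0206) and -1.11 (adjusted p = 0.0272). Only the Creb3l3 call was kept once sex was a term or control 2 and H1H2H2 9 were left out.

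Paralogues of the factors moved in both directions in H1CKO. Of 7 tested, 3 rose and 2 fell, where 27% of all genes rose and 25.6% fell. The farnesoid X receptor gene Nr1h4, the paralogue of Nr1h5, fell from 12.1, 11.6, 11.1 and 14.8 CPM in control to 3.14, 0.840 and 2.06 CPM in H1CKO (adjusted p = 3.28e-05, log2 fold change -2.62, SE 0.312). Nr1h3, the liver X receptor alpha gene, fell by 1.34 (SE 0.178, adjusted p = 6.73e-05). Gata5, a factor of heart and endoderm, stood at 12.2, 4.19, 11.8 and 4.30 CPM in control and 70.0, 40.5 and 42.3 CPM in H1CKO (2.65, SE 0.354, adjusted p = 6.93e-05). As with Gata4, H1CKO 5 with its heart transcripts was the highest library. Gata3 and Nr1h2 were also called higher. In H1H2H2 none of the 7 was called by the edgeR fit of all 11 libraries, where 16.7% of all genes were called. Gata5 was at -0.96 (adjusted p = 0.0822), Gata3 at -0.87 (adjusted p = 0.113), Nr1h4 at -0.57 (adjusted p = 0.128) and the rest between -0.16 and 0.10. DESeq2 and limma-voom each called 1 lower. So did edgeR with only the 2 groups in the fit, or without control 4, H1CKO 6 or H1H2H2 8.

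Of 10 tested cofactors of GATA factors and nuclear receptors, 5 rose in H1CKO and none fell, where 27% of all genes rose and 25.6% fell. Zfpm2 and Zfpm1, the FOG proteins that bind GATA factors, rose by 1.10 (SE 0.343, adjusted p = 0.0169) and 0.70 (SE 0.248, adjusted p = 0.0311). The coactivator genes Ncoa1 and Ncoa2 rose by 0.58 (SE 0.127, adjusted p = 0.00233) and 0.29 (SE 0.0955, adjusted p = 0.0232). Only 3 rose once sex was a term or without control 2, control 3, control 4, H1CKO 6 or H1CKO 7. In H1H2H2 the coactivator gene Crebbp was the 1 called, at -0.44 (adjusted p = 0.0441), where 16.7% of all genes were called. None was called once sex was a term, with only the 2 groups in the fit, or with control 1 and control 2 summed. The same held without any 1 control, and without H1CKO 6, H1CKO 7, H1H2H2 9, H1H2H2 10 or H1H2H2 11. With upper-quartile scaling, no filter, DESeq2 or limma-voom 2 were called lower, and 5 were without H1H2H2 8.

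The genes whose pattern lay closest to that of Hnf4a and Gata4 were read off as a description, by Pearson's r of log2 CPM among 10368 genes with a mean of at least 5 CPM. Over all 11 libraries, which share the gap between H1CKO and the rest, Hnf4a lay closest to Slc39a5, Fgg, Fga, Cfb and Glul, at r of 0.997 to 0.998. Fgg and Fga are fibrinogen chains, and Cfb is a complement factor. Over the 8 libraries of control and H1H2H2, the closest were Glul, Klhl36, Atp2c2, Net1 and Rab11fip3, at 0.949 to 0.968, with Glul, the glutamine synthetase gene, on both lists. Gata4 lay closest to Mical2, Mme, Fhod3, Cacna1d and Tnfaip2 over the 11 libraries, at 0.896 to 0.952. Over the 8 libraries Stra6, Cyp11a1, Plat, Mme and Rrm1 were closest, at 0.953 to 0.987, and there control 2 and H1H2H2 9 are the high libraries. Plat is one of the parietal endoderm markers named above.

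The authors' deposited table gives fold changes and FDR values of its own for the same comparisons. Its calls at an FDR under 0.05 were the same 7 factors in H1CKO against control and all 9 between the mutant groups. Against control, the authors' deposited table calls 3 factors in H1H2H2, the 2 called here and Hhex, at a log2 fold change of -0.58 and an FDR of 0.0440. Its sign was that of the fit here for all 9 factors in each comparison.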

How the data were processed

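Per the file headers, the authors deposited 1 table of whole-number counts per gene, log2 FPKM per library, gene length, and their own log2 fold changes and FDR values (p-values adjusted by the authors). The submitters' processing notes name mm10, STAR 2.5.2b, featureCounts, Subread 1.5.1 and edgeR with no role, and whether counting used strand is not given in the sources used here. From the deposited counts, genes were kept by filterByExpr, which left 14671. The 11 libraries were scaled by TMM and fitted together with edgeR's quasi-likelihood test (edgeR 4.0.16, R 4.3.3), with Benjamini-Hochberg adjustment over all genes tested and a threshold of 0.05. SE is the log2 fold change over the square root of F. A second fit scaled libraries by the geometric mean of 18 visceral endoderm genes. CPM is TMM-normalised, and levels per kilobase use the deposited gene length.

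Alternatives covered scaling, the filter on low counts, DESeq2 1.42.0, limma-voom (limma 3.58.1), the libraries in the fit, a term for sex and each library left out. Shares were compared by exact permutation tests over libraries. The code was checked on simulated data. Sex was read from Xist and Y-linked counts. Promoter windows and their motifs come from RefSeq sequence of GRCm38.p6.

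The members, the gene lists and the tests were chosen with earlier results of these data known. The text names all 9 members, Hand1, up to 4 genes of each list with the smallest p in a comparison, genes set beside a member, and the 5 genes nearest to Hnf4a and to Gata4. Genes named as remaining calls of a list, and Nepn, Lama1, Plat, Nkx2-1 and Sox2, were chosen after their values were seen. Values of some genes in the lists are not reported here, although the counts over each list include them.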

Additional observations from a re-analysis of the deposited data

Results flagged for a closer look

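In 28 groups of 4 libraries, over the members, Hand1 and the shares, the gap between the highest or the lowest library and its neighbour was set against the range of its group. By Dixon's test at the 95% level, 0 of them stood apart, where chance gives about 1 in 20.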

How the results depend on the processing

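Of 594 recomputed log2 fold changes of the members with all-gene scaling, 562 kept their side of the threshold, 23 lost the call and 9 gained one. Per visceral endoderm reference these were 540, 15 and 12 of 567. The sign turned in 14 and 15 of them, in 0 of which the value was called in either fit. These turns include Nr1h5 in H1CKO against control (-0.36 to 0.42), Foxa3 (-0.10 to 0.14) and Gata4 (-0.22 to 0.08) in H1H2H2 against control, and Hnf4a per reference in both comparisons with control (-0.13 to 0.24 and -0.10 to 0.05). The number of members called in H1H2H2 against control, 2, was 4 with DESeq2, 4 with limma-voom, 1 with sex as a term, 1 without control 2 and H1H2H2 9, and 1 to 4 with 1 library left out, lowest without H1H2H2 11 and highest without H1H2H2 8. Per reference the same count, 2, was 1 with sex as a term and 2 to 4 with 1 library left out, highest without H1CKO 5. The counts of members called ranged over the alternatives from 6 to 8 in H1CKO against control and from 7 to 9 between the mutant groups.

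The number of all genes called in H1H2H2 against control, 2443, was 808 with sex as a term, 1134 with control 1 and control 2 summed, 330 without control 2 and H1H2H2 9, and 694 to 5055 with 1 library left out, highest without H1H2H2 8. Per reference, 465 genes became 787 with DESeq2, 1254 with only the 2 groups in the fit, 132 with sex as a term, 211 with control 1 and control 2 summed, 1130 with endocytic receptors as the reference, and 144 to 1777 with 1 library left out. The cause was not tested. No paired analysis was possible because the replicate numbers run from 1 to 11 over the groups and no number is shared. Depth limits Nr1h5 and Foxa1, whose counts in H1H2H2 were 13 to 27 and 36 to 61, and H1CKO holds males only, so that sex there rests on the other groups.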
